A study of Rattus norvegicus with 27 samples.

Results

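The metabotropic glutamate receptor genes Grm2, Grm3, Grm4, Grm5, Grm7 and Grm8 were followed in the medial prefrontal cortex (mPFC) of 27 adult male Wistar rats. They were taken from the raw count table by NCBI gene ID, and the 6 symbols matched 7 of its 36865 rows, since Grm4 was spread over 2 rows. Reads were counted for 5 of the 6 genes, and both Grm4 rows were listed at 0. Of all rows, 11730 reached a mean of 10 counts or more and entered the comparisons.

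All rats were housed in groups and were decapitated at rest, straight from the home cage, after a battery of anxiety tests. They formed a single group without controls, and each library is 1 rat. The sequenced rats were picked for their composite anxiety scores from 2 cohorts. Neither the scores nor the cohort of each rat were used here, so the levels describe that selection of animals, and whether the cohorts match the blocks of library numbers described next was not tested. The labels name learned helplessness as the treatment, a treatment that the published methods do not describe for these rats, and the labels and methods differ in section thickness and library kit.

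Between 4907255 and 12771309 reads per library were counted on genes (median 8168801). The totals differed between 2 blocks of library numbers, namely 3 to 31 (16 libraries, 4907255 to 8568317 reads) and 32 to 54 (11 libraries, 9404220 to 12771309 reads). The labels do not say what the number stands for, and most relations are also given within the blocks. Library 3 stood apart. The sum of its 6 oligodendrocyte markers reached 59784.6 normalized counts, the highest of the 27 libraries, against a median of 27252.0. Calls among those below that were lost without it are named. The tissue carried the transcripts of cortical excitatory neurons, whose 5 markers summed to 31464.8 to 46236.6 normalized counts per library. The 6 markers of striatal neurons summed to 2126.9 to 3132.1, and the 5 markers of meningeal fibroblasts to 131 to 2019.7.

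Metabotropic glutamate receptors are G protein-coupled receptors that adjust transmission more slowly than the glutamate-gated channels. Group I, which includes Grm5, sits mainly around the postsynaptic density and acts through Gq and phospholipase C, which releases calcium from stores through the inositol trisphosphate receptor. Group II (Grm2 and Grm3) and group III (Grm4, Grm6, Grm7 and Grm8) act through Gi/o proteins, which lower cyclic AMP, open GIRK potassium channels and restrain presynaptic calcium channels. Most of them dampen transmitter release as autoreceptors, while Grm3 is also an astrocyte receptor.

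Levels are given as normalized counts, that is reads divided by the size factor of their library. They are not divided by transcript length, so they order the libraries for 1 gene but do not order the genes. In homogenized tissue, fewer cells of a type and less RNA per cell cannot be told apart.

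Grm5, the group I receptor of the list, varied most in proportion to its level. It ranged from 47.4 normalized counts in library 3 to 492 in library 12, with a median of 252 and a mean of 261 ± 108 (SD, n = 27). The second lowest value was 111 in library 28 and the second highest 451 in library 13. The SD of its log2 values was 0.71, and 97.4% of the 11730 genes had a smaller one. Library 3 alone held 31 reads of Grm5, which came to 17.6% of the mean of the other libraries. Without it the log2 SD was 0.55. The spread was present in both blocks, at 267 ± 124 (SD, n = 16) in libraries 3 to 31 and 252 ± 84.9 (SD, n = 11) in libraries 32 to 54.

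Grm2, the group II autoreceptor of neurons, had a mean of 797 ± 173 (SD, n = 27) and ran from 384 in library 9 to 1179.3 in library 32, with a median of 825. The lowest values, 384 and 483 in libraries 9 and 6, lay among the low numbers, and the highest of libraries 3 to 31 was 1078.1 in library 17. The quartiles were 710 and 861. The log2 SD was 0.35, above that of 79.8% of genes. Grm3, the other group II receptor, was steadier, from 237 in library 51 to 400 in library 5, with a median of 304, a mean of 306 ± 46.4 (SD, n = 27) and a log2 SD of 0.21. Library 3 was unremarkable for Grm3, with 327 normalized counts.

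Grm7, the group III receptor of the presynaptic active zone, had a mean of 324 ± 56.6 (SD, n = 27), from 184 in library 3 to 417 in library 17, with a median of 322. Its log2 SD was 0.27. Grm8, a presynaptic relative of Grm7, had a mean of 181 ± 37.3 (SD, n = 27), from 101 in library 3 to 277 in library 12, with a median of 175 and a log2 SD of 0.30. Library 3 was thus the lowest library for Grm5, Grm7 and Grm8, and it held 55.8% of the mean of the others for Grm7 and 55.0% for Grm8. Library 12 was the highest for both Grm5 and Grm8.

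**Figure D1:**
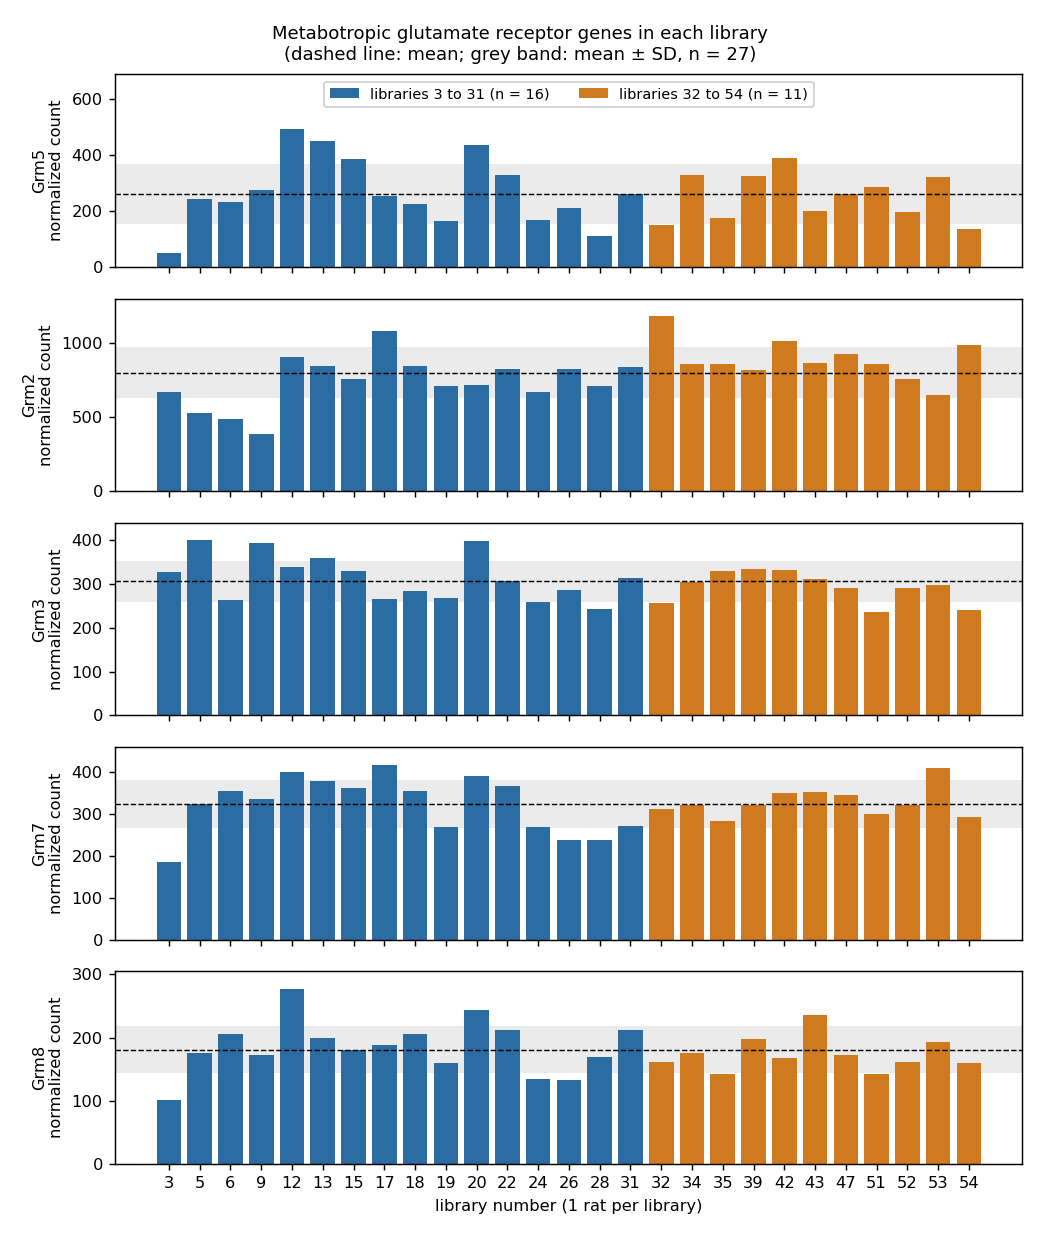
Normalized counts (y axis, from 0) of the 5 counted receptor genes in each of the 27 libraries (x axis, library number), with bars coloured by block, a dashed line at the mean and a grey band of ± 1 SD. Grm5 spans 47.4 to 492 while Grm3 spans 237 to 400, and library 3 has the shortest bar for Grm5, Grm7 and Grm8 but not for Grm2 or Grm3.

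Grm4, a group III receptor, was listed at 0 in all 27 libraries on both of its rows. The table splits 204 genes over several loci, which gives 436 rows, and 383 of these (87.8%) were at 0 in every library, compared with 21787 of all 36865 rows (59.1%). Whether the zeros of Grm4 come from its level or from the split rows was not tested, so they are not read as a measurement of its level. Grm6, the group III receptor of retinal bipolar cells, was counted at 30.2 to 54.3 normalized counts (mean 44.6 ± 6.47, SD, n = 27), and its spread did not exceed counting noise (adjusted p = 0.67, chi-square dispersion test over all genes).

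The spread of the counted members was larger than counting. In the same dispersion test, 5 of 5 exceeded Poisson noise, with the variance per degree of freedom from 6.79 times the Poisson value for Grm3 to 43 times for Grm5. Of all 11730 genes, 89.8% passed this test, so a spread beyond counting was the rule in these libraries and is not particular to the members. The share of the variance that counting alone would give was 2.29% for Grm5, 2.74% for Grm2, 10.4% for Grm7, 13.3% for Grm8 and 14.6% for Grm3.

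The members were compared between the blocks of library numbers with edgeR's quasi-likelihood test. None of the 5 members passed the threshold of adjusted p = 0.05, while 8.85% of the 11716 genes fitted were higher in libraries 32 to 54 and 9.18% lower. Grm2 came closest. Its mean was 886 ± 139 (SD, n = 11) in libraries 32 to 54 and 736 ± 171 (SD, n = 16) in libraries 3 to 31, a log2 difference of 0.27 ± 0.109 (SE; p = 0.0213, adjusted p = 0.0896). It was the only 1 of 5 at an unadjusted p under 0.05, and DESeq2's Wald test called 0 of 5. The log2 differences of the others were -0.10 for Grm3 (adjusted p = 0.409), -0.09 for Grm5 (0.829), 0.03 for Grm7 (0.887) and -0.10 for Grm8 (0.583), each smaller than the spread between libraries.

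The relation of the receptors to each other was tested for each pair over the 27 libraries with Spearman's rho and 100000 permutations. The Benjamini-Hochberg adjustment ran over the 58645 relations of the 5 members with all genes, and called here means an adjusted p under 0.05, which took an absolute rho of at least 0.508. Of the 10 pairs, 4 were called, and all 4 were positive. As a background, 10.2% of 11729 genes were called positive and 5.76% negative with Grm5. For Grm7 the shares were 10.8% and 7.36%, and for Grm8 10.7% and 6.76%. With total-count scaling the positive and negative calls were nearly equal for Grm7 (1057 and 992 genes) and Grm8 (1054 and 993), and in an edgeR fit with the receptor level as covariate they were so for Grm7 (1686 and 1733) and Grm5 (1817 and 1764). The shares were lower for Grm3 (5.64% and 4.35%) and lowest for Grm2 (3.60% and 3.73%). The split for Grm2, 422 positive to 437 negative genes, was 382 to 511 with total-count scaling and 528 to 342 by Pearson's r. It was 174 to 124 with levels centred within the blocks and 162 to 81 in the edgeR fit.

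**Figure D2:**
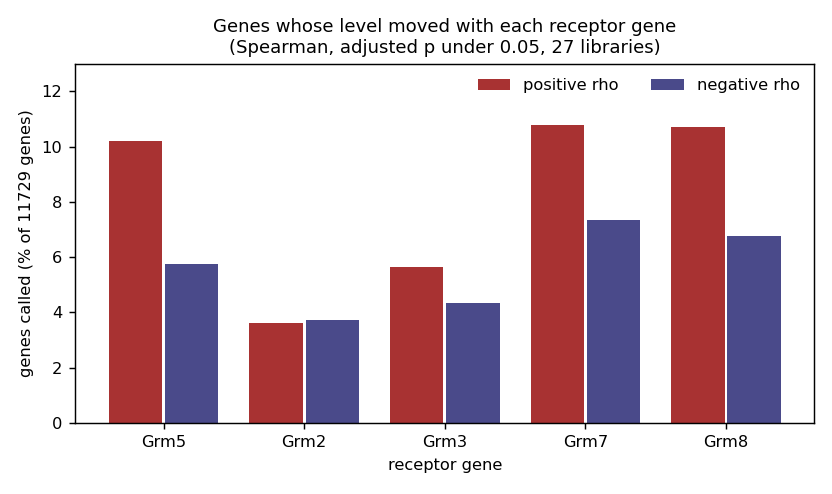
Share of the 11729 other genes (y axis, percent, from 0) whose level was called with each receptor gene (x axis), in red for positive and blue for negative rho. Grm5, Grm7 and Grm8 have 10.2% to 10.8% of genes on the positive side, and Grm2 has 3.60%.

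Grm5 of group I moved together with Grm7 and Grm8 of group III. Grm7 and Grm8 had a rho of 0.737 (permutation p = 4e-05, adjusted p = 0.00196) and a Pearson's r of 0.772 (permutation p = 1e-05, the lower limit of the test, adjusted p = 5.66e-04). Within the blocks rho was 0.774 in libraries 3 to 31 and 0.727 in libraries 32 to 54. Without the libraries farthest from the median of Grm7 (3 and 26), r was 0.618. Grm5 and Grm7 had a rho of 0.690 (permutation p = 1.6e-04, adjusted p = 0.00471) and an r of 0.808 (permutation p = 1e-05, adjusted p = 5.66e-04). Their rho was 0.832 and 0.509 within the blocks, and r was 0.632 without libraries 3 and 28. Grm5 and Grm8 had a rho of 0.603 (permutation p = 0.00129, adjusted p = 0.0176) and an r of 0.701 (permutation p = 1e-04, adjusted p = 0.00246), with 0.759 and 0.464 within the blocks and an r of 0.578 without libraries 3 and 28. Without library 3 alone, the rho of these pairs was 0.705, 0.653 and 0.555, and all 3 were still called (adjusted p = 0.00454, 0.0113 and 0.0365).

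Grm3 and Grm5 made the remaining called pair. Their rho was 0.594 (permutation p = 0.00131, adjusted p = 0.0178), with 0.632 and 0.536 within the blocks. Pearson's r was 0.422 and did not pass (permutation p = 0.0276, adjusted p = 0.101), and it was 0.396 without libraries 5 and 20, the farthest from the median of Grm3. In library 3, Grm3 was at 327 while Grm5 was at 47.4, and without that library rho was 0.667 (adjusted p = 0.00804). Grm3 had a rho of 0.350 with Grm7 (r = 0.273, adjusted p of rho = 0.218) and 0.432 with Grm8 (r = 0.314, adjusted p of rho = 0.113), neither of them called. Within the blocks these were 0.303 and 0.30 for Grm7 and 0.288 and 0.573 for Grm8.

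Over all 27 libraries, Grm2 was called with none of the other 4 receptors. None of its pairs reached an unadjusted permutation p under 0.05 over these libraries or was called in an edgeR fit with the receptor level as covariate. Its rho was -0.188 with its group II partner Grm3 (r = -0.356, adjusted p of rho = 0.557), 0.0965 with Grm5, 0.137 with Grm7 and 0.0263 with Grm8. With Grm3 it was -0.0206 and -0.0818 within the blocks. With the other receptors the blocks differed in sign. In libraries 3 to 31, rho was 0.415 with Grm5, 0.515 with Grm7 and 0.474 with Grm8 (unadjusted permutation p = 0.111, 0.043 and 0.066). In libraries 32 to 54 it was -0.300, -0.200 and -0.164 (unadjusted permutation p = 0.372, 0.558 and 0.635). The difference between the blocks was not tested.

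**Figure D3:**
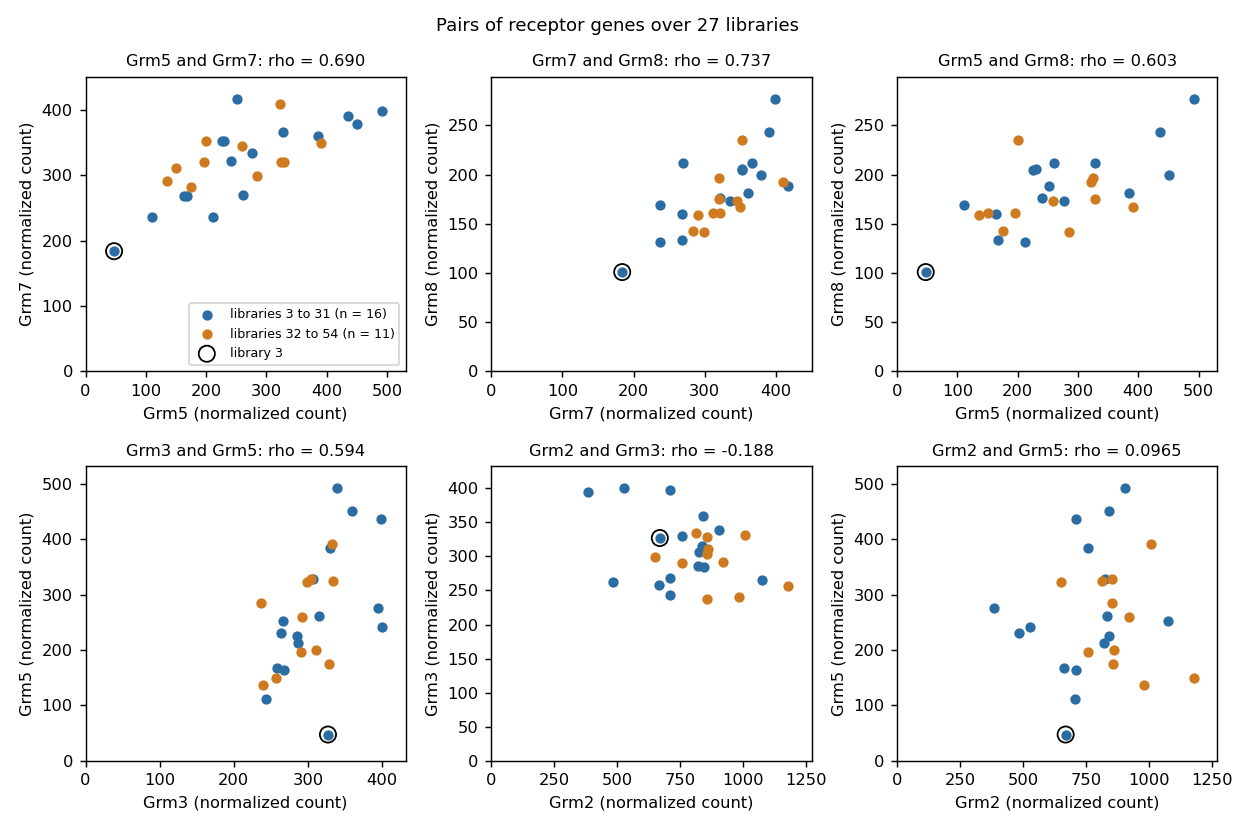
Plots of 6 pairs of receptor genes, each point a library at its normalized counts (both axes from 0), coloured by block, with a black ring around library 3. The points rise together for Grm5, Grm7 and Grm8 (rho 0.603 to 0.737), scatter for the pairs of Grm2 (rho -0.188 and 0.0965), and library 3 lies below the rest in the plot of Grm3 and Grm5.

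The stretches just before the annotated transcript starts of Grm5, Grm7 and Grm8 are shown because these 3 genes moved together. RefSeq's rat promoter table (build GRCr8) held 3 of the 6 members. Each sequence is the 250 bases before the start on the gene's own strand, namely chr1:150733503-150733752 (plus strand) for Grm5, chr4:145286476-145286725 (plus strand) for Grm7 and chr4:57687507-57687756 (minus strand) for Grm8, and capitals mark GC boxes (GGGCGG on either strand).
Grm5: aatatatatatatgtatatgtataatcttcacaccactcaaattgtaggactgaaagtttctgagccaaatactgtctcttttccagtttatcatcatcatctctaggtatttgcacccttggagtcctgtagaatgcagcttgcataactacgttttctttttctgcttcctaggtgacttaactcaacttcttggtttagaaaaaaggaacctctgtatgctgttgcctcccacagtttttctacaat
Grm7: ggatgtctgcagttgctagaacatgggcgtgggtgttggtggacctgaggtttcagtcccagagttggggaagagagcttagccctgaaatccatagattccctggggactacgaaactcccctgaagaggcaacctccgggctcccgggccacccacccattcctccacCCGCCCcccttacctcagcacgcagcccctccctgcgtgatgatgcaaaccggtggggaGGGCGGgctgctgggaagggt
Grm8: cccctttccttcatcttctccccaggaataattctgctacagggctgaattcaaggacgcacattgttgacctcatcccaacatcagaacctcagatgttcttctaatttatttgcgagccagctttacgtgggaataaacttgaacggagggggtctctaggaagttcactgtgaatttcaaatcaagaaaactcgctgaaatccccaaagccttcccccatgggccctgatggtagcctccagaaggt
GC content was 36.4% before Grm5, 62.0% before Grm7 and 47.2% before Grm8, against a median of 51.2% over 33469 rat promoters, and CpG dinucleotides numbered 1, 9 and 5, against a median of 5. The GC box occurred 2 times before Grm7 (from -80 to -75 on the antisense strand and from -21 to -16 on the sense strand, counted from the start), and 30.5% of all promoters held at least 1. None of the 3 windows held, on either strand, the TATA box searched as TATAAA, which 12.9% of all promoters held. The CCAAT box (34% of all promoters), the full cyclic AMP response element TGACGTCA (1.59%) and the shorter core of that element, searched as TGACG (18.2%), had no match either. A match or its absence describes these letters in this window only.

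For each receptor, the genes with the most similar pattern over the 27 libraries were taken by rho among the 9783 named genes that averaged 50 or more normalized counts. These values describe the genes chosen by them. For Grm5, rho was 0.973 with Cacna2d1, an auxiliary subunit of calcium channels, 0.944 with Kcnq3, a subunit of the M-type potassium channel, 0.939 with Apc, a scaffold of Wnt signalling, 0.937 with the unconventional myosin Myo9a and 0.933 with Stxbp5l, a tomosyn that binds release proteins. Within the blocks these 5 had a rho of 0.915 to 0.956 and of 0.891 to 0.973, and of 0.925 to 0.969 without library 3. Kcnq3 and Stxbp5l varied as widely as Grm5, with log2 SDs of 0.75 and 0.81. The lowest values were -0.847 with the Rab GTPase Rab24, -0.827 with Dbnl, an actin-binding drebrin relative, and -0.781 with Tsen54, a subunit of the tRNA splicing endonuclease.

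Grm7 was closest to Sec23a, a COPII coat component (rho = 0.951), followed by Astn1, an astrotactin of neurons (0.933), the ubiquitin ligase Marchf6 (0.908), the guanylate cyclase subunit Gucy1a1 (0.90) and the palmitoyltransferase Zdhhc17 (0.893). Within the blocks these were 0.906 to 0.968 and 0.791 to 0.909. The lowest were the transcription factor Usf2 (-0.864), Necap2 of endocytosis (-0.860) and the mitochondrial iron carrier Slc25a28 (-0.853). The genes closest to Grm8 were Dnajc6, the auxilin that uncoats clathrin vesicles (0.908), the calcineurin subunit Ppp3cb (0.907), the vesicle protein Synpr (0.90), Oxr1 of oxidation resistance (0.896) and Dpp10, an auxiliary subunit of A-type potassium channels (0.896). Within the blocks they ranged from 0.821 to 0.921 and from 0.864 to 0.955. Rnpepl1 (-0.857), Mpnd (-0.835) and Tbc1d17 (-0.835) were the lowest.

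For Grm2 the highest values were smaller. They were 0.822 with Prrt2, a presynaptic protein of transmitter release, 0.785 with Cacng3, an AMPA receptor auxiliary subunit, 0.775 with the semaphorin Sema4f, 0.759 with Phyhip and 0.753 with the kinase Hipk4, and within the blocks 0.676 to 0.844 and 0.455 to 0.709. The lowest were -0.834 with the zinc finger factor Plagl2, -0.762 with the cohesin subunit Stag1 and -0.748 with Slc7a11. Grm3 was closest to Gpm6b, a proteolipid family protein of glia and neurons (0.847), Tmem229a (0.830), the oxysterol hydroxylase Cyp7b1 (0.802), the GTPase-activating protein Arhgap5 (0.802) and the protocadherin Pcdh9 (0.795), with 0.753 to 0.906 and 0.573 to 0.909 within the blocks. Adck5 (-0.830), Prpsap1 (-0.764) and Slc16a13 (-0.763) were the lowest.

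Of all genes, 10.2% were called positive with Grm5. Among the 15 partners and effectors of group I receptors, 5 were called with Grm5, all positive, with a median rho over the list of 0.24 against -0.04 over all genes. These genes act in turn after the receptor. They were the G protein subunit Gnaq (rho = 0.688, r = 0.794, adjusted p of rho = 0.00301), the phospholipases Plcb1 (0.806, r = 0.828, adjusted p = 0.00128) and Plcb4 (0.574, r = 0.570, adjusted p = 0.0241), the inositol trisphosphate receptor Itpr1 (0.772, r = 0.728, adjusted p = 0.00163) and the protein kinase Prkca (0.827, r = 0.880, adjusted p = 8.59e-04). Within the blocks these 5 were 0.776, 0.871, 0.779, 0.844 and 0.853, and 0.582, 0.736, 0.509, 0.855 and 0.773. The scaffold Homer1, which binds the tail of Grm5, stood just outside (rho = 0.505, adjusted p = 0.0550), with 0.703 and 0.0455 within the blocks, and Pearson's r called it (0.558, adjusted p = 0.0167). The scaffolds Shank1, Shank2 and Shank3 were at -0.0147, 0.244 and -0.0965.

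The same list was called as often with the group III receptors, with 5 of 15 genes for Grm7 (median rho 0.16, against -0.02 over all genes) and 5 of 15 for Grm8 (median rho 0.02, against -0.03), all positive. Of all genes, 10.8% were called positive with Grm7 and 10.7% with Grm8. Plcb1 had a rho of 0.792 with Grm7 (r = 0.783) and 0.828 with Grm8 (r = 0.833), with 0.838 and 0.764 and with 0.856 and 0.736 within the blocks. Homer1 had one of 0.584 (r = 0.613, adjusted p of rho = 0.0214) and 0.767 (r = 0.790, adjusted p of rho = 8.59e-04). Within the blocks Homer1 was at 0.718 and 0.0455 with Grm7 and at 0.932 and 0.427 with Grm8, a difference that was not tested. Gnaq was called with Grm7 (0.526) and Grm8 (0.562), with 0.641 and 0.464 and with 0.679 and 0.20 within the blocks, and with neither once library 3 was left out (adjusted p = 0.0908 and 0.0594). With levels centred within the blocks, Gnaq was not called with Grm7 (adjusted p = 0.0568). Grm2 was called with Ncdn, a protein that binds mGluR5 (rho = 0.536), which was no longer called with levels centred within the blocks (adjusted p = 0.497) or without library 3 (0.0598), and which stood at 0.268 and 0.0909 within the blocks. Grm3 was called with Itpr1 (0.584, adjusted p = 0.0190), with 0.512 and 0.718 within the blocks.

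Of the 14 effectors of group II and III receptors, Grm7 was called with 3 positive genes and 1 negative. The median rho of the list was 0.27, against -0.02 over all genes. Of all genes, 10.8% were called positive and 7.36% negative with Grm7, so 1 negative gene of 14 is near the share of all genes. Kcnj3, the GIRK channel subunit, had a rho of 0.871 with Grm7 (r = 0.901, adjusted p of rho = 8.59e-04), with 0.918 and 0.855 within the blocks. The inhibitory G protein subunit Gnai1 stood at 0.797 (r = 0.869, adjusted p = 8.59e-04) and its relative Gnai2 at -0.578 (r = -0.763, adjusted p = 0.0214). Within the blocks Gnai1 was at 0.847 and 0.70 and Gnai2 at -0.921 and -0.482, and Gnai2 was not called without library 3 (adjusted p = 0.05, at the threshold). The third positive gene was the adenylyl cyclase Adcy2 (0.618, adjusted p = 0.0117), with 0.765 and 0.564 within the blocks. Grm8 was called with 4 of the 14, all positive, namely Gnai1 (0.801), Kcnj3 (0.685), Gnb1 (0.597) and Adcy2 (0.563). The median over the list was 0.21, against -0.03 over all genes, of which 10.7% were called positive with Grm8. With levels centred within the blocks, Gnai2 was also called, negatively, with Grm8 (-0.676, adjusted p = 0.0060) and Grm5 (-0.615, adjusted p = 0.0161). Within the blocks Gnb1 was at 0.562 and 0.555 and Adcy2 at 0.671 and 0.764. Grm5, a group I receptor, was called with 3 of the 14, Kcnj3 (0.778), Gnai1 (0.621) and Adcy2 (0.542). The median of the list with Grm5 was 0.26, against -0.04 over all genes, of which 10.2% were called positive with Grm5. Within the blocks Gnai1 and Kcnj3 were at 0.706 to 0.950 and at 0.427 to 0.791 with Grm5 and Grm8, and Adcy2 was at 0.765 and 0.218 with Grm5. Without library 3 Adcy2 was not called with Grm5 or Grm8 (adjusted p = 0.0734 and 0.0612).

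Grm2 was called with the presynaptic calcium channels Cacna1a (rho = 0.632, r = 0.619, adjusted p of rho = 0.00995) and Cacna1b (0.613, r = 0.476, adjusted p = 0.0144), with the Go subunit Gnao1 (0.533, r = 0.429, adjusted p = 0.0391) and, negatively, with Gnai3 (-0.562, r = -0.506, adjusted p = 0.0267). With levels centred within the blocks, 0 of these 4 were called (adjusted p = 0.0763, 0.267, 0.109 and 0.473). In libraries 3 to 31 they were at 0.494, 0.644, 0.556 and -0.391, and in libraries 32 to 54 at 0.327, -0.209, 0.0182 and 0.0182. Gnao1 was also not called without library 3 (adjusted p = 0.0618). Grm3 was called with Kcnj3 (0.520, adjusted p = 0.0485), as Grm5, Grm7 and Grm8 were, with 0.509 and 0.518 within the blocks, but not after centring (adjusted p = 0.0752). Gnai1 stood just outside with Grm3 (0.509, adjusted p = 0.0544) and was called without library 3 (0.582, adjusted p = 0.0269).

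Of the 5 partners with PDZ domains or across the synapse, 4 could be tested, and Elfn2 was listed at 0. Pick1, whose PDZ domain binds the tail of Grm7, was negative with 4 receptors, with a rho of -0.519 with Grm7 (r = -0.619, adjusted p of rho = 0.0469), -0.556 with Grm8 (r = -0.618, adjusted p = 0.0302), -0.607 with Grm5 (r = -0.702, adjusted p = 0.0158) and -0.562 with Grm3 (r = -0.471, adjusted p = 0.0270). In libraries 3 to 31 these were -0.726, -0.776, -0.806 and -0.488, and in libraries 32 to 54 they were -0.318, -0.345, -0.182 and -0.555. Without library 3 the relations with Grm7 and Grm8 were not called (adjusted p = 0.0948 and 0.0669). With levels centred within the blocks, the relation with Grm7 was not called either (adjusted p = 0.0627). The scaffold Grip1 was positive with Grm8 (0.623, r = 0.698, adjusted p of rho = 0.0108), with 0.762 and 0.236 within the blocks. Tamalin, a scaffold of group I receptors, was positive with Grm2 (0.613, r = 0.647, adjusted p of rho = 0.0141), with 0.603 and 0.10 within the blocks, and was not called after centring (adjusted p = 0.0929).

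Grm3 is a receptor at which the peptide transmitter N-acetylaspartylglutamate (NAAG) acts. The synthetic enzymes Rimkla and Rimklb were listed at 0 and Naalad2 was under the minimum count, so Folh1, the glutamate carboxypeptidase that breaks NAAG down, was the 1 gene of this list tested. It had a mean of 119 ± 23.7 normalized counts (SD, n = 27). Folh1 rose with Grm3 at a rho of 0.674 (r = 0.682, adjusted p of rho = 0.00523), with 0.679 and 0.673 within the blocks and 0.723 without library 3. With Grm5 its rho was 0.547 (r = 0.459, adjusted p of rho = 0.0321), with 0.535 and 0.645 within the blocks, and that relation was not called without library 3 (adjusted p = 0.0584).

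Of 10 tested genes of glutamate loading, uptake and recycling, Grm3 was called with 3, all positive and all known from astrocytes. They were the transporters Slc1a2 (rho = 0.712, r = 0.665, adjusted p of rho = 0.00196) and Slc1a3 (0.517, r = 0.565, adjusted p = 0.0475) and glutamine synthetase, Glul (0.524, r = 0.597, adjusted p = 0.0432). The median rho of the list with Grm3 was 0.40, against 0.00 over all genes, of which 5.64% were called positive with Grm3. Within the blocks Slc1a2 was at 0.724 and 0.636, Slc1a3 at 0.503 and 0.445 and Glul at 0.644 and 0.355, and without library 3 Slc1a3 and Glul were not called (adjusted p = 0.0660 and 0.0604). With levels centred within the blocks, Slc1a3 was not called either (adjusted p = 0.0654). Grm5 was called with Slc1a2 (0.712) and the neuronal transporter Slc1a1 (0.587). Slc1a2 was at 0.682 and 0.736 within the blocks and Slc1a1 at 0.653 and 0.482.

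Grm2 was called with 1 gene of this list, and the sign was negative. Slc7a11, the cystine and glutamate exchanger that supplies glutamate outside the synapse, had a mean of 978 ± 132 normalized counts (SD, n = 27) and a rho of -0.748 with Grm2 (r = -0.677, adjusted p of rho = 8.59e-04). It was -0.741 in libraries 3 to 31 and -0.536 in libraries 32 to 54, and -0.734 without library 3. With Grm3, Slc7a11 stood at 0.391 (adjusted p = 0.157), with 0.124 and 0.736 within the blocks.

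Markers of cell types were set beside the receptors in the same way. Grm3 was called with 3 of 6 astrocyte markers, all positive, where 5.64% of all genes were called positive with Grm3. The markers not called were Gfap (rho = 0.166), Aldh1l1 (0.0244) and Sox9 (-0.0928). The median rho was 0.35 for the list and 0.00 for all genes. Those called were Aqp4 (0.656), Slc4a4 (0.579) and Gja1 (0.538). Within the blocks these were 0.685, 0.632 and 0.718, and 0.455, 0.273 and 0.327, and Gja1 was not called without library 3 (adjusted p = 0.0584). The summed astrocyte markers ran from 9187.1 in library 51, where Grm3 was also lowest, to 14281.2 in library 5, where Grm3 was also highest. Library 3 had the sum ranked 3 from the highest (13593.2), while its Grm3 was at 327 against a median of 304. Some genes of other lists were also called with Grm3. They included Cnp of oligodendrocytes (0.557), Vcan of oligodendrocyte precursors (0.770), P2ry12 of microglia (0.608) and the deep-layer genes Tle4 (0.794) and Syt6 (0.538). In all, 2 of 6 oligodendrocyte, 1 of 5 precursor, 1 of 6 microglia and 2 of 5 deep-layer markers were called. The medians of these lists were 0.40, 0.30, 0.29 and 0.38. Other markers did not follow Grm3, such as Bcl11b (-0.148) and Fezf2 (-0.0311) of the deep layers, Aif1 of microglia (0.107) and Olig1 of precursors (0.118). In libraries 3 to 31 Cnp was at 0.468, Vcan at 0.868, P2ry12 at 0.679, Tle4 at 0.779 and Syt6 at 0.568, and in libraries 32 to 54 they were at 0.764, 0.518, 0.618, 0.673 and 0.327. Syt6 was not called after centring (adjusted p = 0.0584). The part of cell composition in these relations was not tested.

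Grm5, Grm7 and Grm8 were each called with Gad2, an enzyme of GABA synthesis (rho = 0.747, 0.707 and 0.634). In libraries 3 to 31 Gad2 was at 0.868, 0.738 and 0.609, and in libraries 32 to 54 it was at 0.60, 0.627 and 0.373. Of the 5 interneuron markers tested, 2 were called with Grm5, 2 with Grm7 and 1 with Grm8. Of all genes, 10.2%, 10.8% and 10.7% were called positive with these receptors. Whether the marker lists exceed the shares of all genes was not tested. Gad1, called with Grm5 (0.526) and Grm7 (0.546), was at 0.594 and 0.473 and at 0.641 and 0.364 within the blocks, and lost both calls without library 3 (adjusted p = 0.0851 and 0.0689), which leaves 1 marker for each receptor. The medians of the list were -0.01, 0.11 and 0.39, and other markers did not follow Gad2, with Slc32a1 at -0.00672, -0.0403 and -0.23 and Pvalb at -0.166, -0.145 and -0.0256. Sst, which marks many interneurons, was listed at 0. Of the 6 astrocyte markers, 2 were called with Grm7, both negative (Sox9 at -0.595 and Aldh1l1 at -0.543), and 1 with Grm8 (Sox9 at -0.606). The shares of all genes called negative were 7.36% with Grm7 and 6.76% with Grm8. With Grm5, 1 was called and it was positive (Slc4a4 at 0.717, adjusted p = 0.00226), with 0.691 and 0.809 within the blocks. The medians with Grm7 and Grm8 were -0.14 and -0.22, and other markers of the list had a positive rho, such as Slc4a4 (0.362 and 0.385) and Aqp4 (0.183 and 0.254). Within the blocks Sox9 was at -0.741 and -0.455 with Grm7 and at -0.656 and -0.564 with Grm8, and Aldh1l1 at -0.532 and -0.609 with Grm7. Aldh1l1 was not called without library 3 (adjusted p = 0.0699). Across all 27 libraries, the 6 oligodendrocyte markers had a rho of -0.13 to 0.11 with Grm5. The median rho of the 5 immediate early genes ran from -0.10 with Grm2 and Grm3 to 0.27 with Grm5, and that of the 5 meningeal markers from -0.33 with Grm3 to 0.05 with Grm7.

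The oligodendrocyte markers were set beside Grm2 with and without centring. Over all libraries 0 of 6 markers were called with Grm2, with a rho of -0.37 to -0.24 and none at an unadjusted permutation p under 0.05, and Pearson's r called 2 of 6, Mobp (-0.511) among them. In libraries 3 to 31 the 6 markers had a rho of -0.762 to -0.576, and in libraries 32 to 54 one of -0.491 to 0.0364. With levels centred within the blocks, 6 of 6 were called negative, with a median rho of -0.64. The summed markers had a median of 25609.3 in libraries 3 to 31 and 32116.5 in libraries 32 to 54, and Grm2 was also higher in the latter block (medians of 734 and 859).

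**Figure D4:**
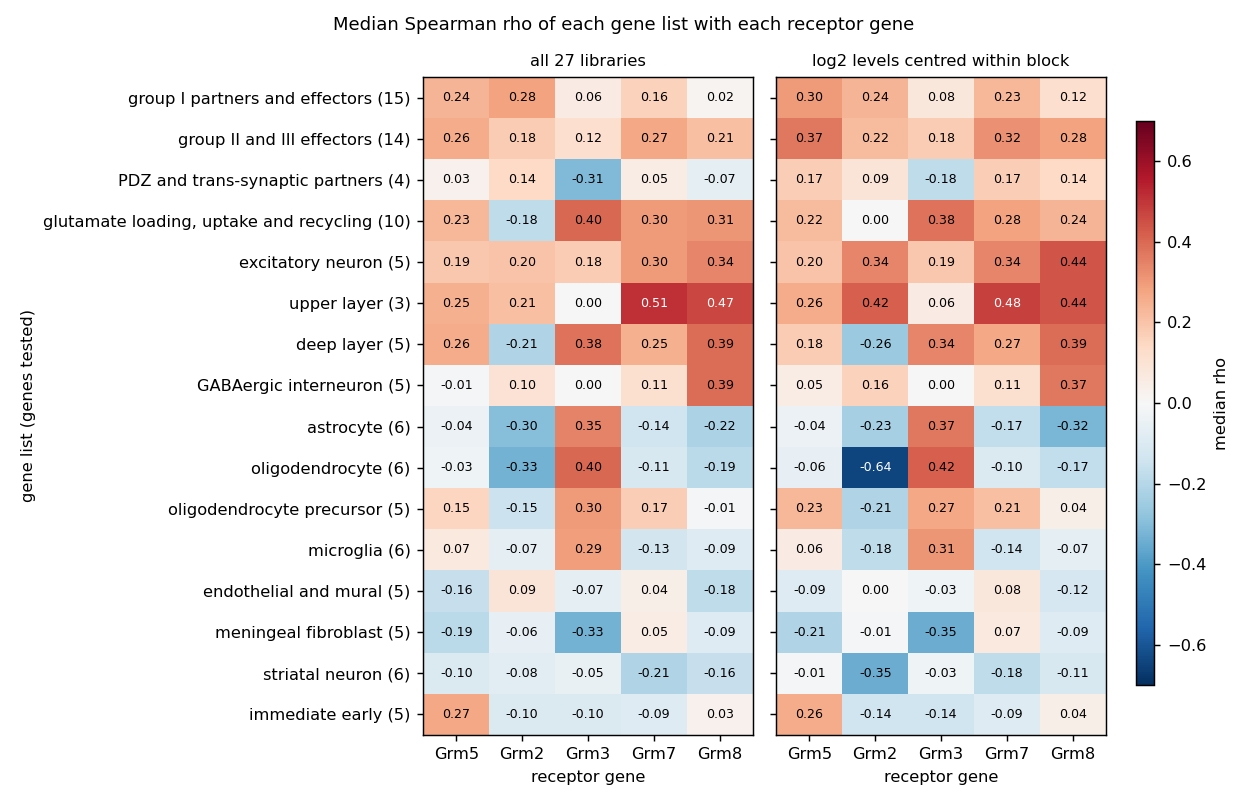
Median Spearman's rho of each gene list (rows, number of genes tested in brackets) with each receptor gene (columns), over all 27 libraries on the left and with log2 levels centred within the blocks on the right, on a colour scale from -0.7 to 0.7. In the astrocyte and oligodendrocyte rows Grm3 has the warmest cells on the left (0.35 and 0.40), and the cell of Grm2 with oligodendrocyte markers goes from -0.33 on the left to -0.64 on the right.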

How the data were processed

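RNA of 27 mPFC samples was sequenced as single reads. The authors deposited raw counts, whole numbers of reads per gene and library that were not normalized. The submitters' processing notes name Trimmomatic, STAR and HTSeq. The genome build and strand setting are not given in the sources used here. Rows were named by gene ID from RefSeq (28157 of 36865 matched). The 6 members and all gene lists were chosen with earlier results of these data known.

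Counts were divided by DESeq2 size factors (version 1.42.0), and Pearson's r used log2(count + 1), which understates changes of low genes. Genes averaging 10 counts or more were kept. Spearman's rho was tested with 100000 two-sided permutations. Blocks were compared with edgeR 4.0.16 (quasi-likelihood, TMM, two-sided), and spread with a chi-square test against Poisson noise. P-values were adjusted by Benjamini-Hochberg at a threshold of 0.05. The edgeR and rank tests were tested on simulated data. Software was Python 3.11.15 (pandas 2.3.3, scipy 1.17.1, numpy 2.4.6 and, for figures, matplotlib 3.10.9) and R 4.3.3.

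Genes named are the members, the listed pathway and marker genes that were called or stood at a list's extremes, and for each member the 5 genes with the highest and 3 with the lowest rho among genes of 50 or more mean normalized counts with a symbol other than a locus code. Alternatives were other scalings, tools, filters and pseudocounts, centring within the blocks, and, chosen after seeing the data, leaving out library 3. Each library is 1 rat, and reads without molecular identifiers carry counting error that does not cover amplification. Some of the listed genes are not reported here by name.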

Additional observations from a re-analysis of the deposited data

How the results depend on the processing

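The 4 called pairs were 4 under every scaling and filter, under centring within the blocks, in the edgeR fit with the receptor level as covariate and without library 3. Pearson's r called 3, since Grm3 with Grm5 fell to an r of 0.422 (adjusted p = 0.101), or 0.420 (adjusted p = 0.103) with a pseudocount of 0.1. The number of genes called with Grm2 was 859, and it was 298 with levels centred within the blocks and 243 in the edgeR fit. With Grm5 it was 1873, against 3061 by Pearson's r, 3052 by Pearson's r with a pseudocount of 0.1 and 3581 in the edgeR fit. The edgeR fit also gave 3419 genes for Grm7 (main 2133) and 3139 for Grm8 (main 2050). The causes of these shifts were not tested. The values near 0 that turned sign were Grm2 with Grm8, at -0.0623 with total-count scaling and -0.0455 without library 3 (main 0.0263), and the block difference of Grm7, at a log2 value of -0.01 without library 3 (main 0.03). Pearson's r also gave more genes for Grm7 (3069) and Grm8 (2783), and leaving out library 3 gave fewer for Grm2 (654). The log2 SD of Grm5 went from 0.71 to 0.55 without library 3. The other member pairs and the other block differences of the members kept their direction and side of the threshold. Several calls of single listed genes were lost after centring or without library 3, and most of these losses are given beside the genes.

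The design held 1 group and no control, so no comparison of conditions was made. Transcript lengths, GC content of transcripts and RNA integrity were not used here. Grm4 rests on rows listed at 0, and Grm5 in library 3 on 31 reads.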
